A study of Sus scrofa with 15 samples.

Results

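The genes of DNA replication and S phase were followed in the backfat of Iberian pigs across 3 diets. The set was a list of 53 gene symbols chosen by function, with earlier results of these data known. Of these symbols 48 could be tied to an Ensembl identifier among the 30477 genes of the count files. MCM5, GINS2, PCNA, FEN1 and RRM2 had no identifier in the name table and were not analysed here. All 48 genes passed the filter on low counts, which left 14918 genes for testing.

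Each diet was represented by 5 pigs, with 1 library per pig. All animals were Iberian, were about a year old at sampling, and gave a biopsy of subcutaneous fat from the back at the end of the growing period. The C group ate a restricted compound feed. The DOP group ate a restricted compound feed that contained dry olive pulp, and the WCOC group ate a restricted compound feed without by-product together with a silage of wet crude olive cake and barley straw, offered freely. The compound feeds of DOP and WCOC were held to a lower share of free energy intake than that of C. Against C, this feeding level and the by-product cannot be told apart. Every diet group lived in a pen of its own, so diet and pen cannot be told apart either. The pigs sequenced were picked from larger groups mainly by the amount and quality of their RNA.

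Levels are given as CPM, the counts of a gene relative to all counts on genes of its library after TMM scaling. A library held 22373715 to 34745218 counts on genes, and 1 CPM stood for 20 to 34 counts. The run identifiers placed 4 C libraries and the 5 WCOC libraries on a flow cell called A here, and the 5 DOP libraries and C replicate 5 on a flow cell called B. WCOC and DOP therefore shared no flow cell. The adipocyte list (8 genes such as ADIPOQ and PLIN1) summed to 16251 to 25082 CPM in the 15 libraries, so the markers that define the labelled tissue were present in each. The skeletal muscle list (4 genes found) ran from 15.5 to 37593 CPM and was above 1000 CPM in 5 libraries, C replicates 1 and 3 and DOP replicates 2, 4 and 5.

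Before a cell divides it copies its genome once. Origins of replication are marked in G1 by the origin recognition complex with CDC6 and CDT1, which load the ring-shaped MCM helicase onto DNA, and the helicase is switched on at the start of S phase by CDC45 and the GINS complex. Polymerases, the sliding clamp and its loader then extend the new strands, while nucleotide enzymes supply the building blocks. Many of these genes are transcribed at the G1/S boundary by activating E2F factors, and E2F7 and E2F8 repress the same genes later in S phase. Mature adipocytes do not divide, so the dividing cells of fat are mostly stromal, vascular and immune cells. In bulk tissue, fewer cells of a type and less RNA per cell cannot be told apart.

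A gene was counted as differentially expressed (DEG) when the adjusted p of edgeR's quasi-likelihood test, corrected over all 14918 genes, was under 0.05 and the log2 fold change (log2FC) was at least 0.58 in size. In the comparison of WCOC with C, 23 of the 48 genes were DEGs with lower values in WCOC (47.9%) and 0 had higher values. Of all tested genes 3.93% were DEGs with lower values in WCOC. The log2FC was below 0 in 46 of the 48 genes (49.4% of all tested genes), with a median of -0.43 against 0.0043 over all tested genes. The 5 WCOC values all lay below the 5 C values in 17 of the 48 genes, a pattern held by 3.87% of all tested genes.

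The 23 DEGs were spread unevenly over the steps of replication. They made up 7 of 10 genes of origin recognition and helicase loading, 2 of 5 of helicase activation, 1 of 12 of the polymerase, clamp loader and strand joining group, 2 of 5 of nucleotide supply and uracil removal, 2 of 3 of chromatin assembly and copying of DNA methylation, 5 of 8 of fork protection and repair, and 4 of 5 of G1/S control. The unequal shares are a description and were not tested.

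**Figure D1:**
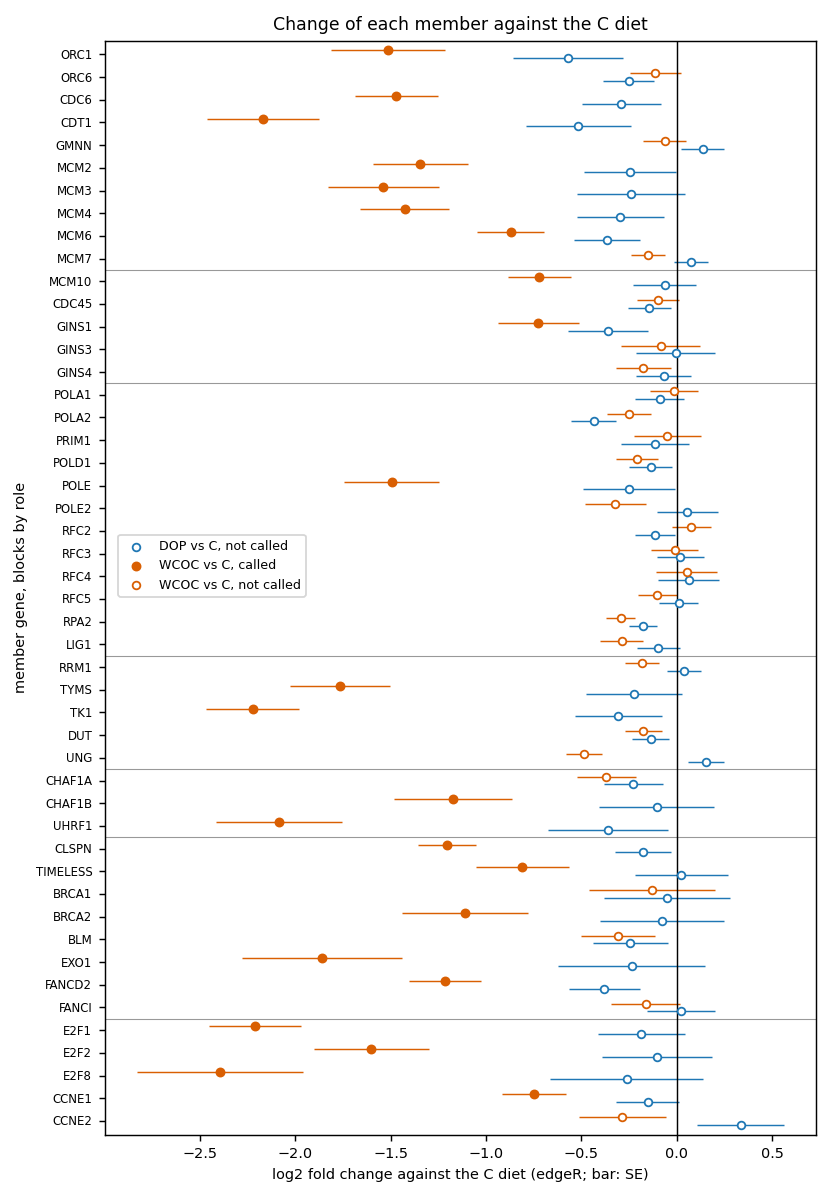
The plot of fold changes gives, for each of the 48 genes (rows, blocked by role), the log2FC of WCOC and of DOP against C with its SE (edgeR, 5 libraries per diet), and filled points are DEGs. The filled points run from -0.72 (MCM10) to -2.39 (E2F8), and 0 DOP points are filled.

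Among the G1/S regulators E2F1, E2F2, E2F8 and CCNE1 were DEGs and CCNE2 was not. E2F1, an activating E2F factor (ENSSSCG00000007268, chr17:37178587-37190118, minus strand in Sscrofa11.1), measured 6.92, 12.4, 10.4, 11.06 and 13.5 CPM in C replicates 1 to 5, 12.9, 7.25, 10.001, 8.64 and 8.99 CPM in DOP and 1.54, 3.11, 2.61, 1.59 and 2.89 CPM in WCOC. All 5 WCOC pigs lay below all 10 other pigs, and C and DOP overlapped. The log2FC of WCOC against C was -2.21 ± 0.24 (SE), a level 4.63-fold lower, with an adjusted p of 0.000208 (edgeR).

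E2F8, a repressor that is itself switched on by activating E2F factors (ENSSSCG00000013352, chr2:40178182-40194932, plus strand), measured 1.37, 3.76, 2.87, 1.91 and 3.81 CPM in C, 3.62, 1.698, 2.099, 1.54 and 2.51 CPM in DOP and 0.229, 1.123, 0.457, 0.222 and 0.59005 CPM in WCOC. The WCOC values rest on 7, 30, 14, 7 and 20 counts. The highest WCOC pig, replicate 2, was just under the lowest C pig, replicate 1. Of the 48 genes E2F8 had the log2FC of greatest size, -2.39 ± 0.44 (adjusted p = 0.00475, edgeR).

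E2F2, another activating E2F factor, measured 1.72, 3.42, 1.85, 2.34 and 3.02 CPM in C and 0.458, 1.123, 0.751, 0.572 and 1.15 CPM in WCOC, without overlap (log2FC -1.60 ± 0.30, adjusted p = 0.00616, edgeR). CCNE1, the cyclin E gene that drives entry into S phase with CDK2, differed less, with 5.101, 5.38, 5.26, 5.53 and 7.06 CPM in C and 3.5998, 3.93, 3.395, 2.48 and 3.45 CPM in WCOC (log2FC -0.75 ± 0.17, adjusted p = 0.0141). Its paralog CCNE2 overlapped between the diets and was no DEG (log2FC -0.29 ± 0.23, adjusted p = 0.454).

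**Figure D2:**
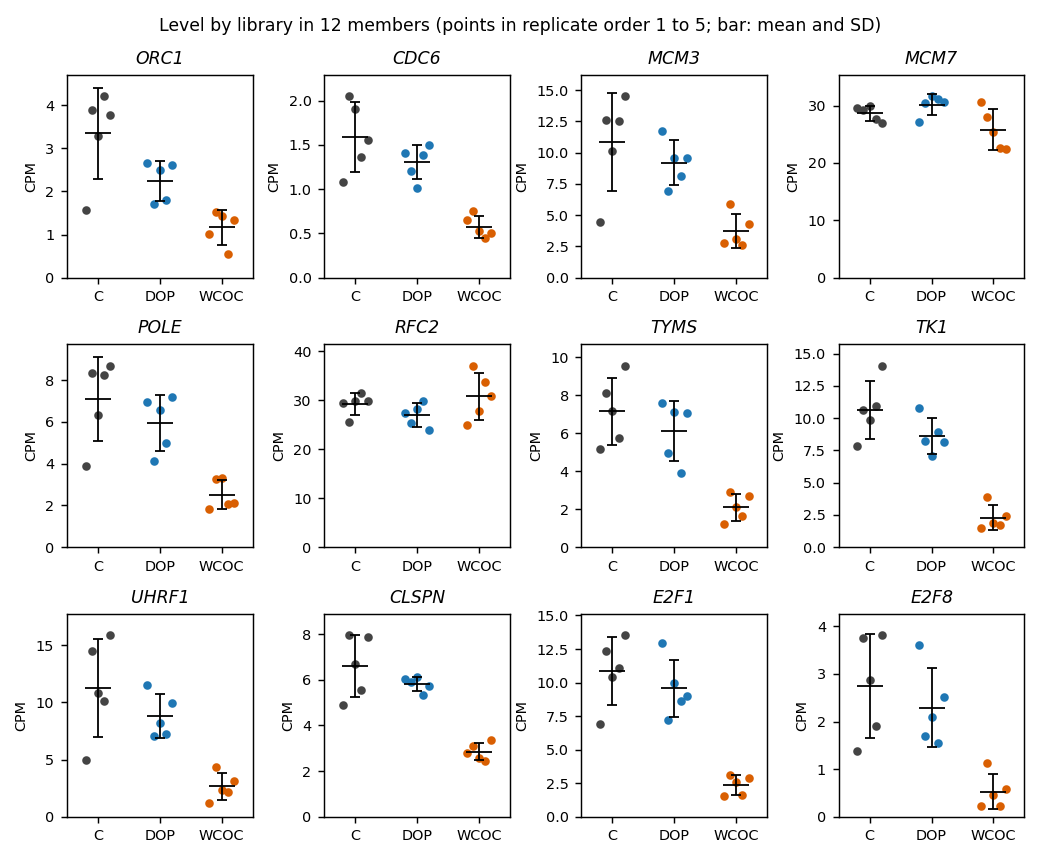
The plots by library give the CPM of 12 genes in each of the 15 libraries (points, in replicate order within a diet) with the mean and SD of each diet, on axes that start at 0. WCOC points of E2F1 sit at 1.54 to 3.11 CPM, below every C and DOP point, while MCM7 and RFC2 points overlap in all 3 diets.

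Among the loading factors, CDT1, which brings the MCM ring to the origin (ENSSSCG00000002651, chr6:893377-897706, minus strand), measured 2.75, 3.46, 3.28, 3.66 and 3.88 CPM in C, 3.09, 1.396, 2.69, 2.29 and 2.44 CPM in DOP and 0.524, 1.35, 0.881, 0.413 and 0.6195 CPM in WCOC. WCOC lay below both other diets without overlap (log2FC -2.17 ± 0.29, adjusted p = 0.000784 against C, edgeR). Geminin (GMNN), the protein that holds CDT1 inactive after origins have fired, measured 8.44, 9.78, 7.103, 7.75 and 10.4 CPM in C and 7.76, 8.01, 9.5001, 8.42 and 7.94 CPM in WCOC, with overlap (log2FC -0.06 ± 0.11, adjusted p = 0.758).

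CDC6, the ATPase that works with CDT1, measured 1.08, 2.05, 1.91, 1.36 and 1.56 CPM in C, 1.41, 1.21, 1.02, 1.39 and 1.499 CPM in DOP and 0.655, 0.749, 0.522, 0.445 and 0.502 CPM in WCOC (log2FC -1.47 ± 0.22 against C, adjusted p = 0.00133, edgeR). ORC1, the largest subunit of the origin recognition complex, measured 1.57, 3.89, 3.28, 4.21 and 3.78 CPM in C and 1.01, 1.53, 1.44, 0.53998 and 1.33 CPM in WCOC (log2FC -1.52 ± 0.30, adjusted p = 0.00741). In both genes the 5 WCOC pigs lay below the 5 C pigs, and C replicate 1 was the lowest C pig. ORC6, the smallest subunit of that complex, gave a log2FC of -0.11 ± 0.13 (adjusted p = 0.6304) and overlapped.

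The MCM2 to MCM7 proteins form a ring with 1 copy of each, but their transcripts did not move alike. MCM3 (ENSSSCG00000025488, chr7:46084648-46104425, minus strand) measured 4.46, 12.6, 10.2, 12.5 and 14.5 CPM in C, 11.8, 6.94, 9.57, 8.11 and 9.55 CPM in DOP and 2.81, 5.91, 3.07, 2.64 and 4.28 CPM in WCOC. C replicate 1 alone reached into the WCOC range, and the log2FC was -1.54 ± 0.29 (adjusted p = 0.00634, edgeR). MCM4 fell by 1.43 ± 0.23 on the log2 scale (adjusted p = 0.00241, no overlap), MCM2 by 1.35 ± 0.25 (adjusted p = 0.00533) and MCM6 by 0.87 ± 0.17 (adjusted p = 0.00826).

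MCM7 (ENSSSCG00000032180, chr3:8005890-8014047, minus strand) measured 29.6, 29.3, 29.8, 27.6 and 26.9 CPM in C, 27.1, 30.4, 31.6, 31.1 and 30.7 CPM in DOP and 30.7, 28.002, 25.3, 22.6 and 22.5 CPM in WCOC. The diets overlapped and MCM7 was no DEG (log2FC -0.15 ± 0.09, adjusted p = 0.293, edgeR). The gene overlaps AP4M1 on the other strand, and although the libraries were aligned as strand-specific, the strand option of the counting is not given in the sources used here, so some of its counts could belong to AP4M1.

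Per kilobase of the longest RefSeq transcript, the mean levels in C were 9.70 CPM for MCM7, 8.08 for MCM6, 4.60 for MCM4, 3.11 for MCM2 and 2.85 for MCM3. In WCOC they were 8.74, 4.42, 1.71, 1.23 and 0.984 CPM per kilobase in the same order. The order of the 5 genes was the same in DOP, where the levels were 10.2, 6.27, 3.75, 2.63 and 2.42. In C the libraries of MCM7 and MCM6 overlapped (9.12 to 10.1 against 4.86 to 10.1), as did those of MCM2 and MCM3 (1.62 to 3.99 against 1.17 to 3.82). MCM7 lay above MCM6 without overlap in DOP (9.16 to 10.7 against 5.71 to 7.27) and in WCOC (7.62 to 10.4 against 3.49 to 4.97). This difference between the genes was not tested.

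Of the genes that turn the loaded ring into a working helicase, MCM10 measured 8.24, 7.65, 7.995, 7.63 and 7.69 CPM in C, 6.75, 7.25, 8.06, 8.79 and 6.66 CPM in DOP and 4.25, 3.93, 6.33, 5.97 and 3.27 CPM in WCOC. The C pigs were close together and all above WCOC (log2FC -0.72 ± 0.17, adjusted p = 0.0156, edgeR). GINS1 measured 3.38, 7.77, 6.72, 6.23 and 8.08 CPM in C and 4.19, 3.82, 4.44, 3.14 and 3.89 CPM in WCOC, with C replicate 1 inside the WCOC range (log2FC -0.73 ± 0.21, adjusted p = 0.0408). GINS3 and GINS4, which code for other subunits of the same complex, gave log2FC values of -0.08 ± 0.21 and -0.18 ± 0.14, and neither was a DEG.

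CDC45, the partner of the MCM ring and GINS at the fork, measured 10.1, 14.1, 12.4, 13.2 and 14.02 CPM in C and 11.3, 11.2, 12.1, 13.2 and 11.7 CPM in WCOC. The diets overlapped (log2FC -0.10 ± 0.11, adjusted p = 0.601, edgeR).

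Of the polymerase and clamp loader group 1 gene was a DEG. POLE, the catalytic subunit of the leading-strand polymerase epsilon (ENSSSCG00000033051, chr14:22798146-22852818, plus strand), measured 3.87, 8.33, 6.34, 8.22 and 8.68 CPM in C, 6.95, 4.11, 6.57, 4.99 and 7.18 CPM in DOP and 1.83, 3.26, 3.297, 2.06 and 2.12 CPM in WCOC. All WCOC pigs were below all C and DOP pigs (log2FC -1.50 ± 0.25, adjusted p = 0.00267 against C, edgeR). Its accessory subunit POLE2 gave a log2FC of -0.32 ± 0.16 with an adjusted p of 0.213.

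The 11 other genes of the group had log2FC values from -0.32 (POLE2) to 0.08 (RFC2). RFC2, a clamp loader subunit (ENSSSCG00000028504, chr3:11373489-11392690, minus strand), measured 29.5, 25.5, 29.8, 31.6 and 29.95 CPM in C and 24.9, 37.1, 27.8, 33.8 and 30.8 CPM in WCOC, with overlap (log2FC 0.08 ± 0.10, adjusted p = 0.6802). RFC4, another subunit of the loader, was the second gene with a log2FC above 0 (0.05 ± 0.16, adjusted p = 0.872). The subunits of the priming complex, POLA1, POLA2 and PRIM1, gave -0.02, -0.25 and -0.05. LIG1, the ligase that joins Okazaki fragments, gave -0.29 ± 0.11 (adjusted p = 0.118).

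RPA2, a subunit of the single-strand binding complex, passed the adjusted p but not the limit on size. It measured 14.9, 17.04, 16.2, 14.9 and 16.5 CPM in C and 12.2, 14.3, 11.98, 12.7 and 13.6 CPM in WCOC, without overlap (log2FC -0.30 ± 0.08, adjusted p = 0.0251, edgeR).

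Both genes of thymidine supply were DEGs. TK1, the cytosolic thymidine kinase of cycling cells (ENSSSCG00000037120, chr12:3785997-3794824, plus strand), measured 7.85, 10.6, 9.84, 10.9 and 14.05 CPM in C, 10.8, 8.26, 7.04, 8.901 and 8.12 CPM in DOP and 1.47, 3.89, 1.89, 1.72 and 2.45 CPM in WCOC. Each WCOC pig was below each C and DOP pig (log2FC -2.22 ± 0.24 against C, 4.67-fold lower, adjusted p = 0.000208, edgeR). TYMS, thymidylate synthase (ENSSSCG00000040678, chr6:105642730-105660279, minus strand), measured 5.15, 8.12, 7.17, 5.77 and 9.54 CPM in C, 7.59, 4.94, 7.099, 3.91 and 7.04 CPM in DOP and 1.21, 2.88, 2.12, 1.62 and 2.68 CPM in WCOC (log2FC -1.76 ± 0.26, adjusted p = 0.00138).

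RRM1, the large subunit of ribonucleotide reductase and the only one analysed (RRM2 had no identifier), measured 43.6, 58.99, 47.7, 47.02 and 54.8 CPM in C and 41.6, 43.7, 49.6, 42.7 and 44.5 CPM in WCOC and overlapped (log2FC -0.18 ± 0.09, adjusted p = 0.206, edgeR). DUT, which keeps uracil out of the nucleotide pool, gave -0.17 ± 0.10 (adjusted p = 0.272). UNG, which cuts uracil out of DNA, measured 10.3, 10.5, 9.46, 8.49 and 10.2 CPM in C, 10.6, 11.2, 10.96, 11.6 and 10.04 CPM in DOP and 7.43, 7.45, 7.38, 6.29 and 6.34 CPM in WCOC. Its WCOC values were all lower, but the log2FC of -0.49 ± 0.09 (adjusted p = 0.00701) was under the limit on size.

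Behind the fork, UHRF1, which guides the copying of DNA methylation to the new strand (ENSSSCG00000013517, chr2:73898061-73937727, minus strand), measured 4.95, 14.5, 10.9, 10.2 and 15.9 CPM in C, 11.6, 7.06, 8.21, 7.21 and 9.94 CPM in DOP and 1.24, 4.38, 2.38, 2.19 and 3.098 CPM in WCOC. The C pigs were widely spread, and the lowest of them was above the highest WCOC pig (log2FC -2.09 ± 0.33, adjusted p = 0.001904, edgeR). CHAF1A and CHAF1B code for subunits of chromatin assembly factor 1, which places histones on new DNA. CHAF1B fell by 1.17 ± 0.31 on the log2 scale (adjusted p = 0.0281, with overlap), and CHAF1A gave -0.37 ± 0.16 (adjusted p = 0.147).

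Of the fork protection and repair genes, CLSPN (claspin, an adaptor of the replication checkpoint, ENSSSCG00000003628, chr6:91906325-91968070, minus strand) had the smallest adjusted p. It measured 4.905, 7.95, 6.69, 5.53 and 7.85 CPM in C, 6.03, 5.89, 6.14, 5.33 and 5.72 CPM in DOP and 2.78, 3.11, 2.58, 2.45 and 3.36 CPM in WCOC. WCOC stood apart from both other diets (log2FC -1.21 ± 0.15 against C, adjusted p = 0.000413, edgeR). FANCD2, the central protein of the crosslink repair pathway, measured 3.43, 6.45, 5.92, 4.28 and 7.32 CPM in C and 1.996, 2.88, 2.42, 2.22 and 2.301 CPM in WCOC (log2FC -1.22 ± 0.19, adjusted p = 0.00184), also without overlap. FANCI, with which FANCD2 forms a pair, gave -0.16 ± 0.18 (adjusted p = 0.597).

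EXO1, a DNA exonuclease of mismatch repair, measured 0.392, 1.32, 0.86002, 0.896 and 1.82 CPM in C and 0.131, 0.524, 0.261, 0.254 and 0.295 CPM in WCOC, where it rests on 4, 14, 8, 8 and 10 counts. C replicate 1 lay inside the WCOC range (log2FC -1.86 ± 0.42, adjusted p = 0.0145, edgeR). BRCA2, a protein of break repair by recombination, fell by 1.11 ± 0.33 on the log2 scale (adjusted p = 0.0461), and TIMELESS, which travels with the fork, by 0.81 ± 0.25 (adjusted p = 0.0497). BRCA1 and BLM gave -0.13 and -0.31 and were no DEGs.

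Leaving out each C or WCOC library in turn kept 19 of the 23 calls in all 10 fits. GINS1 was lost in 9 of them, TIMELESS in 8, BRCA2 in 7 and CHAF1B in 6. On flow cell A alone (4 C against 5 WCOC pigs) 17 calls remained, among 486 DEGs in all. On lane 2 of flow cell A alone (4 C against 3 WCOC pigs) only E2F1 was called, among 34 DEGs in all, and the 23 genes all kept a log2FC below 0 with a median of -1.30.

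**Figure D3:**
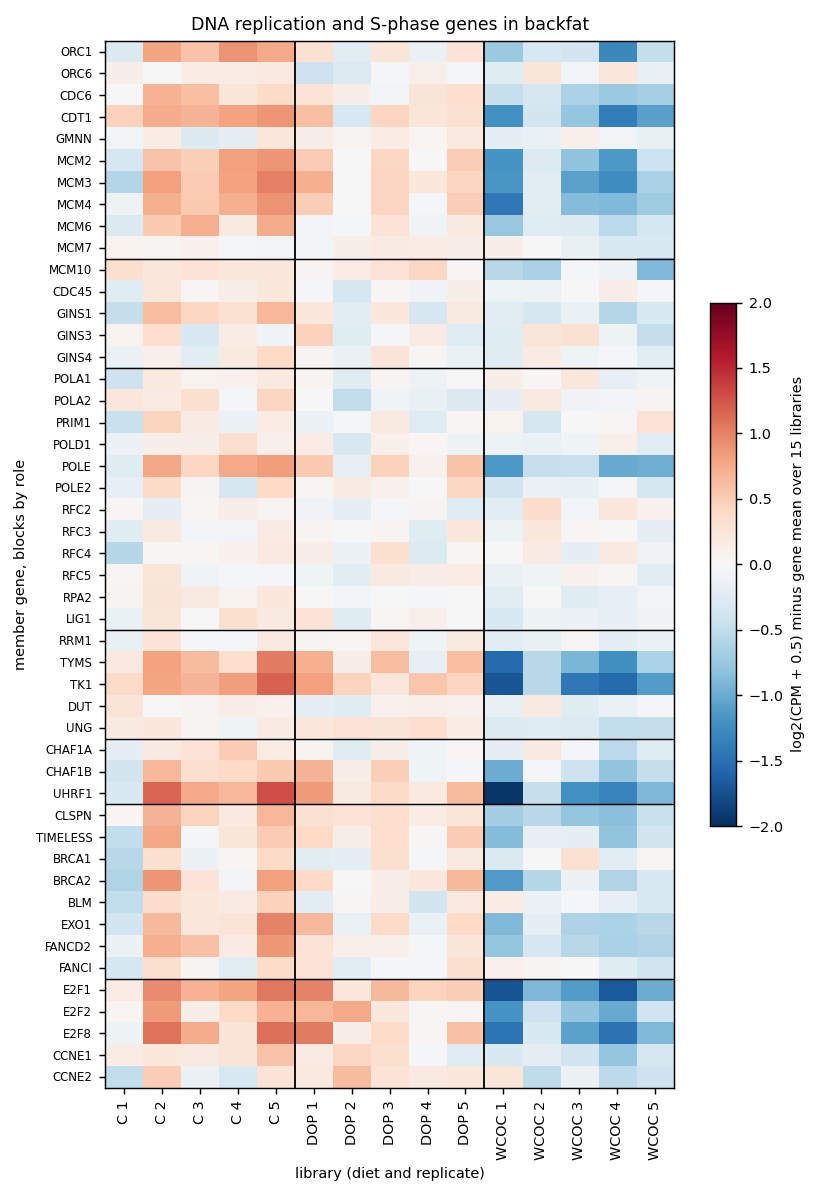
The heat map gives, for each of the 48 genes (rows, blocked by role) and each library (columns), log2(CPM + 0.5) minus the mean of the gene over the 15 libraries. The WCOC columns are mostly blue in 23 rows, though fields of MCM10 are close to white in some WCOC libraries. C replicate 1 is paler than the other C columns in most of the 23 rows.

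The DEGs also shared an order of the pigs within a diet. C replicate 1 was the lowest C pig in 22 of the 23 DEGs and in 14 of the 25 other genes. C replicate 5 was the highest C pig in 15 DEGs and in 10 of the 25 other genes. DOP replicate 1 was the highest DOP pig in 12 and 4, and WCOC replicate 2 the highest WCOC pig in 17 and 9. WCOC replicate 1 was the lowest of its diet in 14 DEGs and 9 other genes, and WCOC replicate 4 in 8 and 4. Part of the order was therefore seen in the other genes too. Since these genes share libraries, the order is a description of the pigs.

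The spread between pigs on 1 diet was wider in the DEGs than in the rest. Over the DOP pigs the coefficient of variation had a median of 19.9% in the 23 DEGs (5.42% to 36.7%). In the 25 other genes the median was 12.04% (2.19% to 30.04%). The DOP values do not enter the fold change of WCOC against C. They do enter the estimate of spread shared by all 15 libraries, on which the DEG calls rest. The DEGs were also less abundant by the median, with 1.44 CPM per kilobase in C (0.188 to 8.08) against 3.37 in the others (0.0789 to 40.2). These ranges overlapped, and low counts carry more counting error. The difference in spread was not tested.

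**Figure D4:**
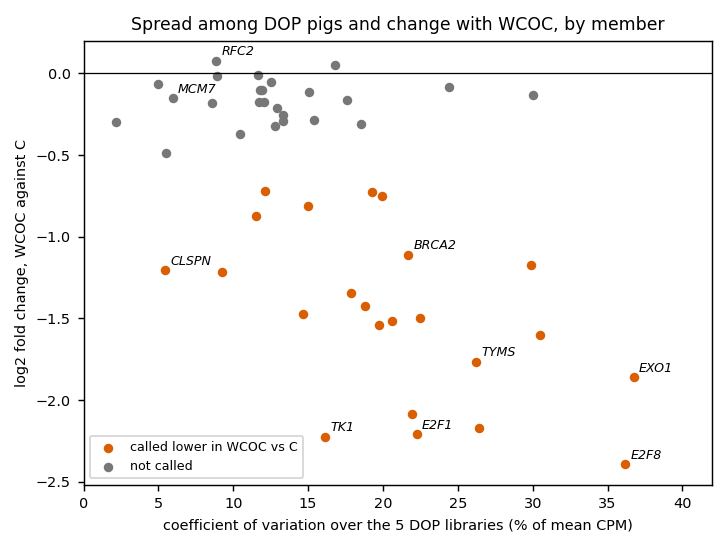
The scatter plot sets the coefficient of variation of each gene over the 5 DOP libraries (horizontal, % of the mean) against its log2FC of WCOC against C (vertical), with DEGs coloured. CLSPN shows a low spread of 5.42% with a log2FC of -1.21, and EXO1 and E2F8 lie at the wide end.

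In DOP against C, edgeR called 0 of the 48 genes, and DESeq2 and limma-voom called 0 as well. Of all tested genes 0.550% were DEGs with lower values in DOP and 0.215% with higher values. With so few DEGs in all, 0 of 48 does not set these genes apart. POLA2 and RPA2 were the only 2 of the 48 genes with an unadjusted p under 0.05 in edgeR, against 17.6% of all tested genes. The median log2FC was -0.14 (all tested genes 0.011), and 37 of the 48 values were below 0 (47.8% of all tested genes). Log2FC values ran from -0.57 ± 0.29 (ORC1) to 0.33 ± 0.23 (CCNE2).

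POLA2, the regulatory subunit of the priming polymerase, measured 14.9, 14.1, 15.8, 12.4 and 17.1 CPM in C and 12.6, 8.87, 11.9, 11.3 and 10.3 CPM in DOP. DOP was the lower diet, but its highest pig passed the lowest C pig (log2FC -0.44 ± 0.12, adjusted p = 0.0898, edgeR). DESeq2 gave it an adjusted p of 0.0136 with a log2FC of -0.44, under the limit on size, and the other alternatives gave adjusted p-values of 0.0617 to 0.989. RPA2 measured 14.1, 13.6, 14.3, 13.9 and 14.4 CPM in DOP, all below C (log2FC -0.18 ± 0.08, adjusted p = 0.241). It was the only one of the 48 genes whose DOP values all lay below the C values, which was the case for 1.76% of all tested genes. All DOP libraries were run on flow cell B, where C replicate 5 was the only C library, and with flow cell as a covariate the median became -0.32 with 0 genes called.

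The direct contrast of WCOC with DOP called 21 of the 48 genes, all lower in WCOC and 0 higher (43.8%). Over all tested genes 5.11% were DEGs with lower values in WCOC and 2.65% with higher values. The median log2FC was -0.44 against 0.00067 over all tested genes. The WCOC values lay wholly below the DOP values in 22 of the 48 genes, against 4.77% of all tested genes. Of the 21 DEGs 20 were also DEGs against C, and both contrasts use the same WCOC libraries.

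E2F1 (-2.03 ± 0.24, adjusted p = 0.000662) and TK1 (-1.92 ± 0.24, adjusted p = 0.000881) had the smallest adjusted p-values of WCOC against DOP in edgeR. E2F8 again had the log2FC of greatest size, -2.13 ± 0.43 (adjusted p = 0.00853). UNG, under the limit against C, was a DEG here with a log2FC of -0.64 ± 0.09 (adjusted p = 0.00177). MCM6 (-0.51, adjusted p = 0.0693), BRCA2 (-1.03, adjusted p = 0.0532) and GINS1 (-0.37, adjusted p = 0.277) were DEGs against C but not against DOP.

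Diet and flow cell cannot be told apart in WCOC against DOP, and with flow cell as a covariate, which then rests on C replicate 5, 0 of the 48 genes and 1 gene in all were called. Without the 5 libraries rich in muscle transcripts, which leaves 2 DOP pigs, 8 genes were called, CDT1, MCM3, POLE, TYMS, TK1, UHRF1, CLSPN and E2F1, among 92 DEGs in all. The 21 genes all kept a log2FC below 0 in that fit, with a median of -1.43 against -1.18 with all libraries.

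A second list of 60 genes is a fixed selection of other genes of replication and its cell-cycle control, of which 56 were found and 55 tested. In WCOC against C 11 of the 55 were DEGs with lower values (20%, against 3.93% of all tested genes), 0 were higher, and the median log2FC was -0.09. The 5 with the greatest change were TICRR, needed to fire origins (-2.39 ± 0.46, adjusted p = 0.00634), ASF1B, a histone chaperone (-2.21 ± 0.34, adjusted p = 0.00176), E2F7, the partner repressor of E2F8 (-1.92 ± 0.34, adjusted p = 0.00438), RAD54L, a recombination factor (-1.63 ± 0.27, adjusted p = 0.00294), and RECQL4, a helicase of replication start (-1.26 ± 0.20, adjusted p = 0.00203), all by edgeR. The summed level of the list was 1259 ± 79.2 CPM in C, 1279 ± 42.3 in DOP and 1246 ± 60.3 in WCOC (SD, n = 5).

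In DOP against C edgeR, DESeq2 and limma-voom called 0 of these genes. An unadjusted p under 0.05 in edgeR was held by 3 of the 55, against 17.6% of all tested genes. In WCOC against DOP 7 were DEGs with lower values (12.7%, against 5.11% of all tested genes) and 1, PRIM2, with higher values (2.65% of all tested genes). PRIM2, the large primase subunit, measured 9.36, 10.2, 9.35, 8.22 and 6.73 CPM in DOP and 15.9, 16.2, 8.49, 12.04 and 15.8 CPM in WCOC, with overlap (log2FC 0.64 ± 0.19, adjusted p = 0.03903).

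The summed level of the 48 genes was 484 ± 59.7 CPM in C, 444 ± 30.2 CPM in DOP and 351 ± 25.3 CPM in WCOC (SD, n = 5). WCOC (324 to 390 CPM) lay below C (392 to 547 CPM) and DOP (402 to 472 CPM). The G1/S group summed to 25.4 ± 5.76 CPM in C and 10.1 CPM in WCOC, and the polymerase group to 141.5 ± 10.8 and 126.9 CPM.

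Markers of dividing cells moved with these genes. Of 14 mitosis genes 13 were DEGs with lower values in WCOC than in C, and AURKB was not. The share of all tested genes, for this and the following lists, was 3.93% lower and 2.33% higher in WCOC, and 0.550% lower in DOP, each against C. Their sum was 85.4 to 149 CPM in C, 81.1 to 127 CPM in DOP and 24.9 to 49.2 CPM in WCOC, with C replicate 1, DOP replicate 2 and WCOC replicate 1 lowest in their diets.

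Macrophage markers moved too. Of 10 macrophage genes 5 were DEGs with lower values in WCOC than in C and 1 (MSR1) in DOP than in C, and their sum was 257 to 765 CPM in C, 180 to 455 CPM in DOP and 124 to 341 CPM in WCOC, so the diets overlapped. Of 8 genes of lipid-associated macrophages 5 were DEGs with lower values in WCOC and 3 in DOP, with sums of 1869 to 4315 CPM in C, 1320 to 1850 CPM in DOP and 1471 to 2010 CPM in WCOC.

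Of 8 fibroblast and adipocyte progenitor genes 3 were DEGs with lower values in WCOC than in C, with sums of 10429 to 18151 CPM in C, 7765 to 13844 CPM in DOP and 3830 to 10668 CPM in WCOC. The T cell genes summed to at most 17.2 CPM in C and at most 20.4 CPM in WCOC, the B cell genes to 0.854 to 1.60 and 1.11 to 9.06 CPM, and the epidermis genes to 3.37 to 37.4 and 2.23 to 122 CPM, each with overlap. Of 7 endothelial genes 1 (ERG) was a DEG, with a higher value in WCOC than in C. All 7 had a log2FC above 0 in that contrast, with a median of 0.39. An unadjusted p under 0.05 in edgeR was held by 5 of the 7 (26.4% of all tested genes). The endothelial sums were 957 to 1203 CPM in C, 1241 to 1611 CPM in DOP and 1042 to 1703 CPM in WCOC. Of the 8 adipocyte genes 1 (ADIPOQ) was a DEG with a higher value in WCOC than in C. The median log2FC was 0.42, with 3 of the 8 genes below 0, down to -0.40. An unadjusted p under 0.05 in edgeR was held by 5 of the 8 (26.4% of all tested genes). Against DOP 2 adipocyte genes (PLIN4 and LEP) were DEGs with higher values in WCOC, and 3 of the 8 had a log2FC below 0. DEGs lower in WCOC than in DOP were 12 of 14 mitosis and 2 of 8 fibroblast and progenitor genes. So were 1 of 10 macrophage and 1 of 3 tested muscle genes, and 1 of 3 tested epidermis genes was higher. The other lists had 0 DEGs in that contrast. Of all tested genes 5.11% were lower and 2.65% higher there. The adipocyte sums overlapped, with 16251 to 21091 CPM in C, 18971 to 24569 CPM in DOP and 17154 to 25082 CPM in WCOC. The part of these cell types in the lower replication genes was not tested.

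**Figure D5:**
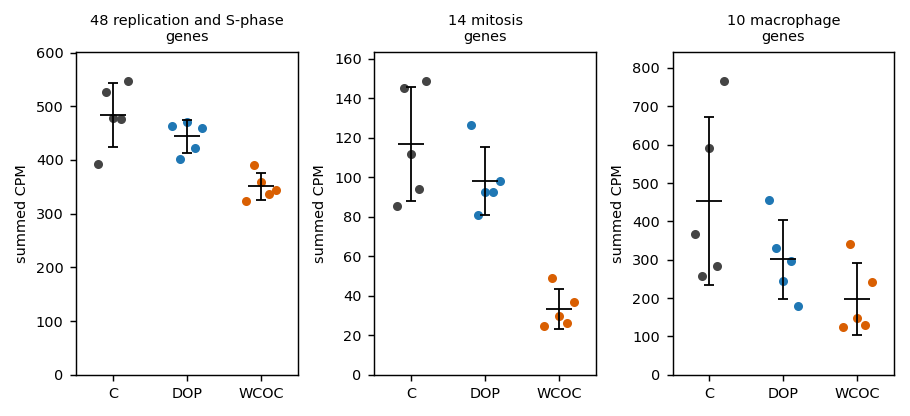
The plots of summed CPM give the total of the 48 replication and S-phase genes, of 14 mitosis genes and of 10 macrophage genes in each library (points, in replicate order) with the mean and SD of each diet, on axes that start at 0. WCOC points of the first and second panels lie below all C and DOP points, and those of the macrophage panel overlap both diets.

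The promoters of these genes were searched for the letters bound by E2F factors, the G1/S regulators named above. A promoter was taken as 250 bases before to 50 bases after the RefSeq gene start in Sscrofa11.1, which need not be the start used in fat. The E2F letters TTTGGCGC, TTTCGCGC, TTTGCCGC or TTTCCCGC, on either strand, stood in 3.35% of 19556 promoters. They stood in 12 of the 47 tested genes with a promoter (25.5%). Of the 22 DEGs with a promoter 9 held them (40.9%), ORC1, CDT1, MCM3, MCM6, POLE, TYMS, CHAF1B, BRCA2 and E2F2, and of the 25 other genes 3 held them (12%), POLA1, POLE2 and RPA2. In MCM6 a pair of the 3 matches overlap each other. These are counts of letters and do not show a bound site.

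Stretches of 30 bases around a match are shown for 6 DEGs, so that the letters can be set beside the falls given above, and for 2 genes that were no DEGs. Each is written 5′ to 3′ on the strand of its gene, with the E2F letters in capitals, and a match on the opposite strand appears as its reverse complement.
ORC1: gggcctcggctTTTGGCGCgaatttccttt
CDT1: gccaagccgcgGCGCGAAAacccgcgcgaa
MCM3: tacttttgttgGCGGGAAAagtagagaggt
POLE: ttggtgggagcGCGCCAAAtttctccaggg
TYMS: ccggcgctttgGCGGGAAAagaggcgtcgg
E2F2: gcggcacgcagTTTCGCGCtaaaaaaaaaa
POLA1: gtcatcatgggGCGCCAAAcgcgcgcccgc
POLE2: ttgcggccgtgGCGCCAAAacgcgaacatg

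The ORC1 stretch lies at chr6:159819328-159819357 (plus strand), that of CDT1 at chr6:897681-897710 (minus), that of MCM3 at chr7:46104371-46104400 (minus), that of POLE at chr14:22798127-22798156 (plus), that of TYMS at chr6:105660244-105660273 (minus) and that of E2F2 at chr6:81398811-81398840 (minus). Those of POLA1 and POLE2 lie at chrX:20756584-20756613 (plus) and chr1:179529853-179529882 (minus). The matches of MCM3, TYMS and POLE2 begin 36, 17 and 20 bases after the gene start, and that of POLE 8 bases before it. POLE and POLE2, subunits of 1 polymerase, both held the letters TTTGGCGC near the start. POLE, the DEG of the pair, also held TTTCCCGC 233 bases before its start, and POLE2 had 1 match. E2F1, E2F8, TK1, CDC6 and UHRF1, all DEGs, held none of these letters in the window.

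The CCAAT letters, bound by NF-Y, stood in 35.4% of all promoters, in 13 of the 22 DEGs (59.1%) and in 13 of the 25 other genes (52.0%). The letters TTTGAA or TTCGAA, known from promoters of mitosis genes, stood in 15.6% of all promoters, in 3 of the 22 DEGs (13.6%) and in 4 of the 25 others (16%).

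The genes lay on 16 chromosomes. In 14 of the 47 genes with a RefSeq position another gene overlapped the gene's span on the other strand. Of these, 6 were DEGs in WCOC against C (ORC1, MCM4, UHRF1, CLSPN, FANCD2 and E2F2). The rest, MCM7, RFC3, RFC4, RFC5, DUT, BRCA1, FANCI and CCNE2, were no DEGs. The counts of all 14, and with them the fold changes given above, are uncertain to that extent.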

How the data were processed

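RNA of backfat from 15 Iberian pigs was sequenced as read pairs, 1 library per pig. According to the study's methods and the submitters' processing notes, the authors checked the reads with FastQC, mapped them on Sscrofa11.1 with HISAT2 (set for strand-specific reads) and assigned them to Ensembl genes with HTSeq. The authors deposited the resulting raw counts, without normalization or pooling. Tool versions, annotation release and the strand setting of HTSeq are not given in the sources used here. The 5 summary lines of a file (23.4% to 32.8% of its total) were left out. CPM and log2 values were computed here.

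Diets and pig numbers were taken from the labels, and flow cells and lanes from run identifiers. In R 4.3.3, edgeR 4.0.16 was fitted to all 15 libraries with 1 mean per diet (filterByExpr by diet, TMM, common dispersion 0.0814). Quasi-likelihood tests were two-sided with Benjamini-Hochberg adjustment over 14918 genes. The script was tested on simulated data. Alternatives were DESeq2 1.42.0, its size factors, limma-voom (limma 3.58.1), other filters, fits on 2 diets only, a replicate block, a flow cell covariate, flow cell A or its lane 2 alone, no limit on log2FC, each library left out, and, chosen after seeing the data, leaving out libraries over 1000 CPM of the muscle list. Counting error sets the precision of low values. The p-values weigh a difference between diets against counting error and the spread between pigs. With 1 pen per diet they do not cover differences between pens.

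The genes and lists were chosen with earlier results of these data known. Symbols came from a name table (15623 symbols). Named with values were, in each role, the 3 genes with the smallest p in WCOC against C and the most abundant one, every DEG of the other contrasts, every gene above 0 in WCOC against C, and of the second list the 5 DEGs of greatest change and those called upwards. Other genes given values were named after these were seen. Positions, transcript lengths and promoters are those of RefSeq on Sscrofa11.1, where 47 of the 48 genes matched (TIMELESS did not). Same-numbered pigs did not deviate together (correlations of -0.560 to 0.324), so the numbers were not taken as pairs. Figures were made with Python 3.11.15 and matplotlib 3.10.9.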

Additional observations from a re-analysis of the deposited data

Results flagged for a closer look

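In each diet of 5 pigs, the gap between the most extreme pig and its nearest neighbour was compared with the whole range of the diet for the named genes and for the summed level of the 48 genes. Of 117 sets of 5 values 4 had a gap above 0.71 of the range, and chance gives about 1 in 20.

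MCM7 measured 27.1 CPM in DOP replicate 1, below the next DOP pig at 30.4 CPM. RFC4 measured 4.17 CPM in C replicate 1, below the next C pig at 6.58 CPM. CCNE1 measured 7.06 CPM in C replicate 5, above the next C pig at 5.53 CPM, and it remained a DEG in WCOC against C in all 10 fits that left out a C or WCOC library. E2F7 measured 2.89 CPM in DOP replicate 1, above the next DOP pig at 1.85 CPM.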

How the results depend on the processing

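The 23 DEGs of WCOC against C among the 48 genes numbered 17 to 25 in all alternatives other than lane 2, and 19 to 23 when 1 C or WCOC library was left out. On lane 2 of flow cell A alone there was 1, and 0 of the second list. That fit holds 7 libraries, and 34 genes in all were called. The 11 DEGs of the second list became 7 with flow cell as a covariate, 5 on flow cell A alone, and 6 to 11 with 1 library left out.

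In WCOC against DOP, flow cell as a covariate left 0 of 21 genes and 0 of 8 of the second list, with a median log2FC of -0.24, and the same fit gave a median of -0.32 in DOP against C. Without the muscle-rich libraries 8 of the 48 and 1 of the second list were called. The cause was not tested. Leaving out 1 library gave 15 to 21 genes (second list 6 to 8). In DOP against C 0 of the 48 genes were called in every alternative, and 0 to 1 of the second list with 1 library left out (CHTF18, without C replicate 1). Few genes in all were called there, 114 of 14918 in the main fit and 521 by DESeq2. With a replicate block 0 were called in all, and on 2 diets only 2 of 14474. Such fits say little about the 48 genes.

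The labels number the pigs 1 to 5 in each diet, but the numbers did not pair them: 1 of 5 same-numbered correlations was over 0.1 in WCOC with C, 0 in DOP with C and 2 in WCOC with DOP. With a replicate block 19 genes (second list 6) were called in WCOC against C, 16 (second list 5) in WCOC against DOP and 0 in DOP against C. Over all 14918 tested genes that fit called 473, 561 and 0 in the same order, against 933, 1158 and 114 without the block.

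No value changed its direction past a threshold. Levels under 1 CPM, such as EXO1 in WCOC, rest on few counts.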
